A study of Mus musculus with 8 samples.

Results

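The genes described here carry dietary fat through the absorptive cell of the small intestine. They were chosen by symbol, as apolipoproteins, fatty acid handling proteins, enzymes of triglyceride resynthesis and the lipoprotein assembly factor. All 10 were found, 1 row each, among 55487 genes in the table, and all 10 passed the filter on low values (mean normalized count of 10 or more), as did 16352 genes in all. RNA came from the ileum of irinotecan-treated mice, of which 4 were wild type (WT, Gsdme+/+) and 4 lacked the pore-forming protein gasdermin E (Gsdme_KO, Gsdme-/-), and each mouse gave 1 bulk poly(A) library. Both genotypes had received irinotecan, a topoisomerase I inhibitor with intestinal toxicity, and untreated mice were not analysed here, so the values compare genotypes under treatment. Strain, age, sex, dose, time after treatment and the design of the Gsdme allele are not stated in the labels used here.

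Absorbed fatty acids and monoglycerides are rebuilt to triglyceride at the endoplasmic reticulum of the enterocyte. CD36 takes part in the uptake of long-chain fatty acids at the cell surface, and the fatty acid binding proteins FABP1 and FABP2 carry them in the cytosol. MOGAT2 joins monoglyceride and fatty acid to diglyceride, and DGAT1 adds the last fatty acid. The microsomal triglyceride transfer protein, encoded by Mttp, loads this fat onto apolipoprotein B, the structural protein of the chylomicron, and apolipoproteins A-I, A-IV and C-III join the particle before it enters the lymph. Most fat is absorbed in the upper small intestine, and the ileum takes up what is left.

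Apoa1, Apoc3 and Apoa4 lie side by side on chromosome 9 (GRCm38, GENCODE M21), within 14880 bases. Apoa1 (46228580 to 46230466, plus strand) and Apoc3 (46232933 to 46235636, minus strand) are 2466 bases apart, and Apoa4 (46240696 to 46243459, plus strand) begins 5059 bases beyond Apoc3. Fabp2 and Mttp are both on chromosome 3, at 122895072 to 122899506 (plus strand) and 138089854 to 138144968 (minus strand), and the others are spread over chromosomes 5, 6, 7, 12 and 15. Start-site windows of 300 bases were available for 7 of the 10 genes in RefSeq (build GRCm38.p6), each running from 250 bases before to 50 after the RefSeq start. They were searched on both strands for CAAAGTNCA, a motif typical of HNF4, the nuclear receptor that drives many enterocyte genes. The windows of Apoa4 and Fabp2 held it, 2 of 7, against 1.41% of all 32851 windows of this length. They are shown with that of Apoa1, the cluster neighbour of Apoa4. Apoa4 and Fabp2 share the motif but differed widely in their values relative to WT in KO4 and KO5, as did Apoa4 and Apoa1. Capitals mark the motif, which in the Fabp2 window is read on the opposite strand, and each window runs 5′ to 3′ along its gene.
Apoa4 (chr9:46240594-46240893, plus strand): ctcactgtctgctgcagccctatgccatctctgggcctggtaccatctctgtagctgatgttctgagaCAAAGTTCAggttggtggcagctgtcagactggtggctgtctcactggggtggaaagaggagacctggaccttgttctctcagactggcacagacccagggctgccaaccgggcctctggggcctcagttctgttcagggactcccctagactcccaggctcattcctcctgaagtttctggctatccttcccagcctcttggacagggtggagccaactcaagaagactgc
Fabp2 (chr3:122894822-122895121, plus strand): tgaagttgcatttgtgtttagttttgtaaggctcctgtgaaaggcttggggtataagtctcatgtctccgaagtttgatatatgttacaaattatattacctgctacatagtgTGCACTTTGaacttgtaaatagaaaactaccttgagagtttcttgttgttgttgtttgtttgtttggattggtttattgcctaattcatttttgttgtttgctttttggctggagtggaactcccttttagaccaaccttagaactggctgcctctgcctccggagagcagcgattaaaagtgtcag
Apoa1 (chr9:46228380-46228679, plus strand): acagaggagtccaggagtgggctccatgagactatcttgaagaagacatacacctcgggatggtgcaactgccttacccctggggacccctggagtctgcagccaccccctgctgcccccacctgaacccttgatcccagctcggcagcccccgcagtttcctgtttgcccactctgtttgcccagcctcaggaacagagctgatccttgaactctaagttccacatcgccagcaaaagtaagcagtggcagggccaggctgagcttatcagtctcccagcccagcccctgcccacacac
The match begins 182 bases before the RefSeq start in Apoa4 and 137 bases before it in Fabp2. That RefSeq start lies 148 bases inside the GENCODE gene bounds in Apoa4, and at the GENCODE start in Fabp2. TATAAA was present in the windows of Apob and Fabp1, 2 of 7, against 13.6% of all windows. None of the 7 held AGATAA, which 11.2% of all windows do. A further pair of longer motifs that were searched, a DR1 direct repeat (0.0396% of all windows) and an HNF1-type palindrome (0.00913%), were also in none of the 7. The matches of these motifs do not overlap in any member's window. A match is a run of letters and shows no binding, and a window without one says nothing about the factor. The Mttp and Cd36 windows begin from starts that lie 1550 and 52905 bases inside the GENCODE gene bounds, so other starts of these genes were not searched.

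The libraries held 15617407 to 23437343 reads in genes and are named by the table's headers, since the header numbers (such as WT3 or KO4) are not the labels' mouse numbers. The targeted gene, Gsdme, ranged from 2169 to 3376 in WT and from 113 to 634 in Gsdme_KO libraries, with a log2 difference of -3.32 (exact permutation p = 0.0286, two-sided, the smallest possible over 70 assignments). Gsdme was not called by limma, the test used for the members (unadjusted p = 9.6e-05, limma adjusted p = 0.786). KO4 and KO5 stood apart. A list of 8 B cell markers reached summed normalized counts of 9947 (KO4) and 5580 (KO5), with no marker at 0 in either, and of 228 to 335 in the remaining 6. A list of 12 mature enterocyte genes outside fat absorption had sums of 83912 (KO4) and 120495 (KO5), and of 232950 to 382316 elsewhere. A list of 10 pan-epithelial genes had sums within the range of the others, at 251975 and 280671 against 251032 to 301665, but its members went both ways. KO4 and KO5 were below all other libraries in Epcam (34389 and 36133, others at least 38894) and Vil1 (32151 and 32051, others at least 36518). They were above all others in Krt18 (13978 and 14934, others at most 10261) and Elf3 (11855 and 12380, others at most 10528), and the other 6 genes did not separate them. The genotype difference of each member is therefore also given without KO4 and KO5. In bulk tissue, fewer cells of a type and less RNA per cell cannot be told apart. The ileal genes Fabp6, the bile acid binding protein (14739 to 72985), and Slc10a2, the bile acid importer (7983 to 25319), were present in every library.

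No fat absorption gene was called between the genotypes. By limma on log2(normalized count + 1), 0 of the 10 had an adjusted p under 0.05 and 0 an unadjusted p under 0.05, where 0.00612% of all tested genes were called and 4.38% had an unadjusted p under 0.05. The edgeR test on recovered reads gave 0 and 0 (background 0.00612% and 5.96%), and DESeq2 gave 0 called and 1, Apob, at an unadjusted p under 0.05 (background 0.055% and 6.93%). The genotypes overlapped in all 10 genes, while 2.5% of tested genes had no overlap (1.19% with Gsdme_KO lower, 1.31% with it higher). Of the 10 log2 differences, 8 were negative and 2 positive, with a median of -0.34, against 0.0026 over all tested genes, of which 49.4% were negative. Without KO4 and KO5 the same count was 1 negative and 9 positive, with a median of 0.11, against 0.0071 over all tested genes. In that fit 0 were called (limma, smallest adjusted p = 0.999, where 0.00617% of tested genes were called and 2.74% had an unadjusted p under 0.05). The fit kept WT8, which was the lowest WT library in 9 of the 10 members.

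**Figure D1:**
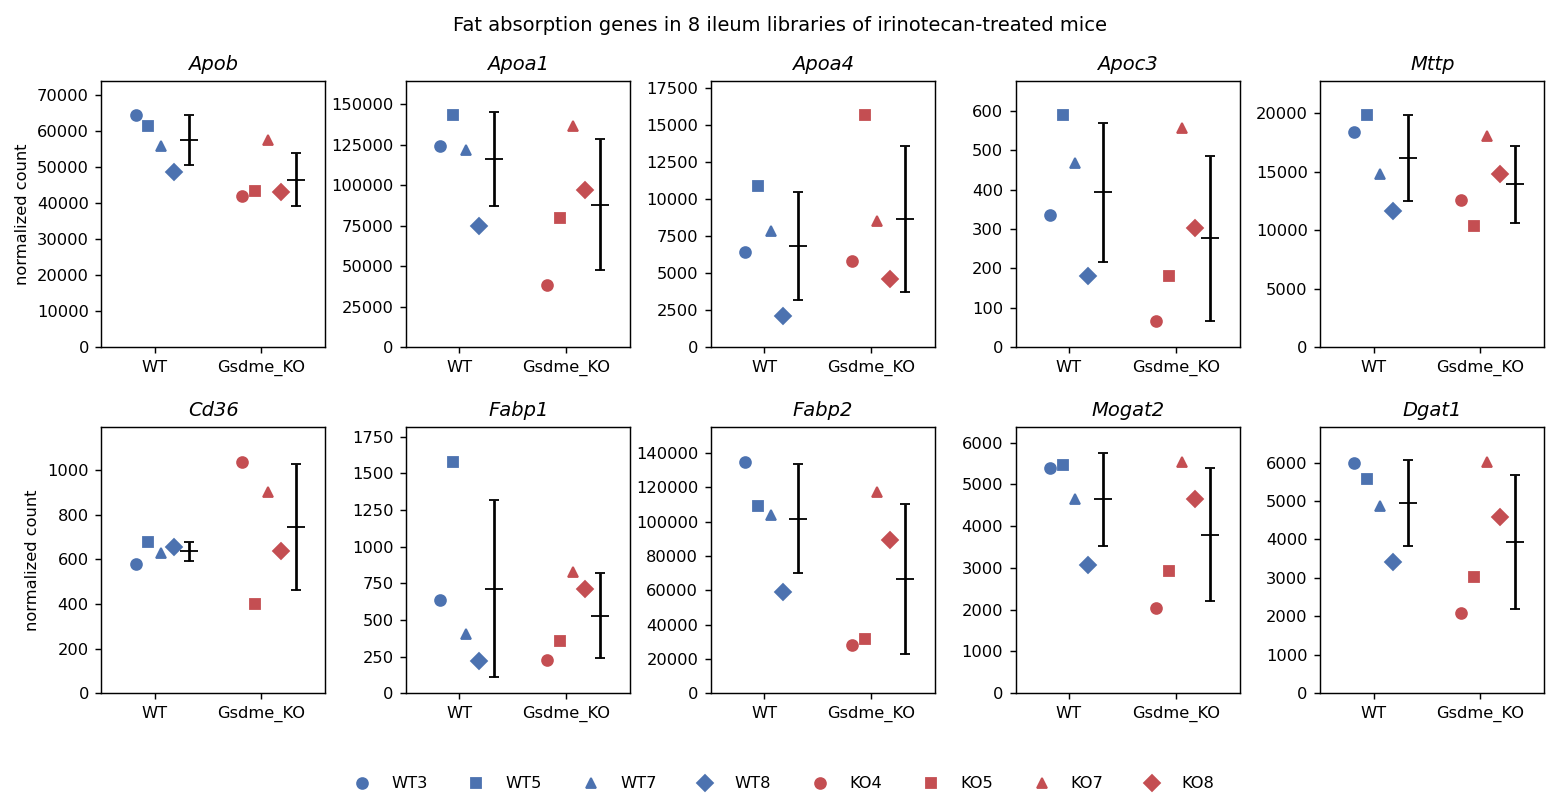
Normalized counts of the 10 fat absorption genes (vertical axes, linear and starting at 0) in 4 WT (blue) and 4 Gsdme_KO (red) ileum libraries, 1 symbol per library, with black bars for the mean ± SD of each genotype. KO4 and KO5 are the lowest libraries of all for Fabp2, Dgat1 and Mogat2, whereas KO5 is the highest for Apoa4.

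Apob, which encodes the core protein of the chylomicron, varied least of the 4 apolipoprotein genes among the members. Normalized counts were 64225 (WT3), 61350 (WT5), 55721 (WT7) and 48535 (WT8) for WT, then 41748 (KO4), 43303 (KO5), 57519 (KO7) and 43029 (KO8). In Gsdme_KO, 3 libraries lay below every WT library and KO7 lay within the WT range. The mean was 57457 ± 6918 for WT and 46400 ± 7444 for Gsdme_KO (SD, n = 4), with a log2 difference of -0.31 (SE 0.167, 95% interval -0.69 to 0.067, limma adjusted p = 0.849). Apob was also the only member whose negative difference kept its sign without KO4 and KO5, at -0.20 (95% interval -0.67 to 0.27, limma adjusted p = 0.999). The highest of the 8 libraries was 1.54 times the lowest.

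Apoa1 encodes the main protein of high density lipoprotein, which the intestine also secretes on chylomicrons. It had normalized counts of 124428 (WT3), 143290 (WT5), 122032 (WT7) and 74870 (WT8) in the WT libraries, and 38533 (KO4), 79975 (KO5), 136630 (KO7) and 96803 (KO8) in Gsdme_KO. KO4 alone lay below the WT range, and WT8 was the lowest WT library. The log2 difference was -0.50 (SE 0.392, 95% interval -1.39 to 0.39, limma adjusted p = 0.849), and 0.026 without KO4 and KO5 (95% interval -0.70 to 0.76). Apoc3 encodes an inhibitor of lipoprotein lipase and of the clearance of triglyceride-rich particles. It was far less abundant, at 336 (WT3), 589 (WT5), 469 (WT7) and 180 (WT8) for WT, then 66.4 (KO4), 182 (KO5), 557 (KO7) and 302 (KO8), from 72 to 495 recovered reads. Its highest library was 8.88 times its lowest, the widest range among the members. The log2 difference of Apoc3 was -0.76 (SE 0.622, 95% interval -2.17 to 0.66, limma adjusted p = 0.849) with all libraries and 0.19 without KO4 and KO5 (95% interval -0.84 to 1.22).

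Apoa4, whose protein is secreted on chylomicrons after fat is eaten, parted from its cluster neighbours in KO4 and KO5. It had normalized counts of 6419 (WT3), 10913 (WT5), 7868 (WT7) and 2087 (WT8) in the WT libraries, and 5816 (KO4), 15668 (KO5), 8543 (KO7) and 4612 (KO8) in Gsdme_KO. KO5 was the highest and WT8 the lowest of all libraries, and KO4 lay inside the WT range. Outside KO4 and KO5, Apoa4 ordered the libraries as Apoc3 did, from WT5 at the top to WT8 at the bottom. The log2 difference was 0.41 (SE 0.539, 95% interval -0.81 to 1.63, limma adjusted p = 0.897), 0.11 without KO4 and KO5 (95% interval -1.24 to 1.45) and -0.08 without WT8. The opposite-strand gene models Gm47528 and Gm10680, with mean normalized counts of 19.0 and 24.8, overlap 34.9% and 34.8% of the Apoa4 exon bases, and the labels used here do not state how strand was counted.

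The ratio of Apoa4 to Apoa1 within a library shows the split, a comparison chosen after the values were seen and given without a test. Per kilobase of exon, Apoa4 stood at 10.3% of Apoa1 in KO4 and 13.3% in KO5. In the other 6 libraries it was 1.90% (WT8), 3.24% (KO8), 3.51% (WT3), 4.26% (KO7), 4.39% (WT7) and 5.19% (WT5). Apoc3 lay the other way against Apoa1, at 0.210% in KO4 and 0.277% in KO5, although WT8 was close at 0.292% and the rest ran from 0.329% to 0.501%. Apoa4 stood at 49.0 times Apoc3 in KO4 and 48.2 times in KO5, and at 6.49 (WT8) to 10.7 times (WT3) elsewhere. The 2 libraries with few mature enterocyte transcripts thus held the highest share of Apoa4 and the lowest of Apoc3 relative to Apoa1.

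Mttp, the assembly factor, had normalized counts of 18366 (WT3), 19826 (WT5), 14772 (WT7) and 11618 (WT8) in the WT libraries, and 12542 (KO4), 10340 (KO5), 18036 (KO7) and 14762 (KO8) in Gsdme_KO. KO5 alone lay below the WT range. The log2 difference was -0.21 (SE 0.217, 95% interval -0.71 to 0.28, limma adjusted p = 0.863), and 0.045 without KO4 and KO5. Of the other members, Mttp had the profile nearest to that of Apob, its lipoprotein partner (root mean square log2 difference 0.183). The ratio of Mttp to Apob, per kilobase, lay between 0.536 (KO5) and 0.770 (KO8), and KO4, at 0.675, was inside the range of the other libraries. Exons of Trmt10a, on the opposite strand, overlap 7.36% of the Mttp exon bases and had a mean of 109 normalized counts.

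**Figure D2:**
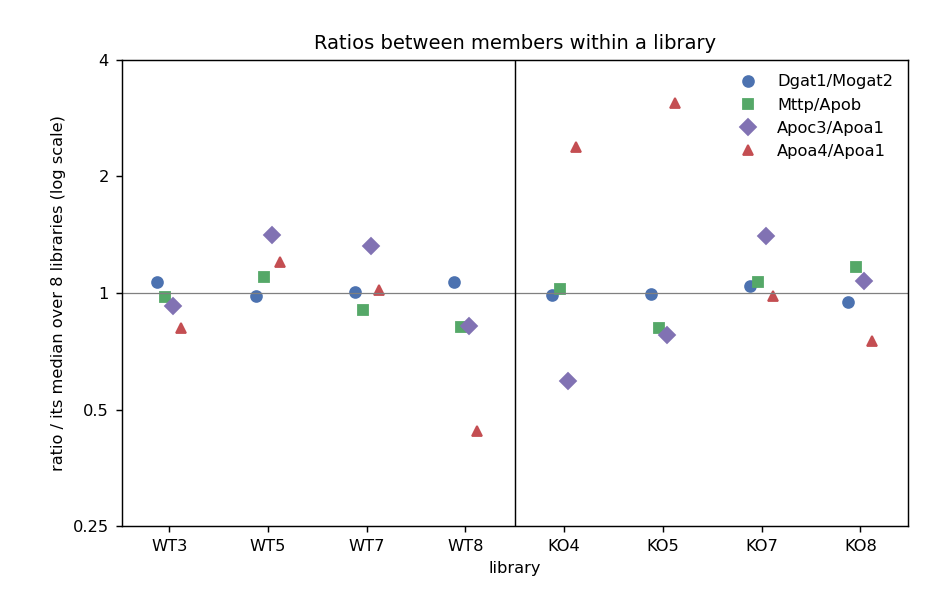
Ratios of normalized counts per kilobase between pairs of members within each library, each divided by its own median over the 8 libraries (vertical axis, log scale), for 4 WT libraries (left of the line) and 4 Gsdme_KO libraries (right). Dgat1 to Mogat2 (per kilobase 0.593 to 0.666) stays near its median in every library, whereas Apoa4 to Apoa1 is highest in KO4 and KO5.

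Fabp2, the intestinal fatty acid binding protein, was low in KO4 and KO5 alike. Its normalized counts were 135055 (WT3), 108870 (WT5), 103989 (WT7) and 58717 (WT8) for WT, then 27917 (KO4), 31563 (KO5), 117049 (KO7) and 89387 (KO8). KO4 and KO5 lay below all other libraries, while KO7 and KO8 lay within the WT range. The log2 difference of -0.82 was the largest in size among the members (SE 0.501, 95% interval -1.96 to 0.32, limma adjusted p = 0.849), and it was 0.072 without KO4 and KO5 (95% interval -0.72 to 0.86). Fabp1, the liver-type binding protein, was low in this ileum and spread widely within each genotype. It had normalized counts of 637 (WT3), 1580 (WT5), 404 (WT7) and 223 (WT8) in the WT libraries, and 223 (KO4), 354 (KO5), 830 (KO7) and 711 (KO8) in Gsdme_KO. The WT libraries alone spanned 7.10-fold, and all Gsdme_KO libraries lay within them. The log2 difference of Fabp1 was -0.24 (SE 0.617, 95% interval -1.64 to 1.16, limma adjusted p = 0.947), and its sign turned without WT5 (0.27), without KO4 (0.11) and without KO4 and KO5 (0.48).

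Cd36 was the least abundant member per kilobase and the only one in which WT8 was not the lowest WT library. It had normalized counts of 580 (WT3), 680 (WT5), 631 (WT7) and 655 (WT8) in the WT libraries, and 1039 (KO4), 400 (KO5), 900 (KO7) and 640 (KO8) in Gsdme_KO. The WT libraries lay close together, with a coefficient of variation of 6.71% against 38.0% in Gsdme_KO, where KO4 and KO7 were above and KO5 below the WT range. The log2 difference was 0.14 (SE 0.264, 95% interval -0.46 to 0.74, limma adjusted p = 0.927), 0.26 without KO4 and KO5 and -0.05 without KO4 alone. CD36 is also made by fat cells, macrophages and endothelium, and markers of these were present. The 6 adipocyte markers summed to 2340 to 4413 in the WT libraries, and to 4368 (KO4), 1383 (KO5), 4928 (KO7) and 3741 (KO8), so that KO5 was lowest for both. The adipocyte hormone gene Lep was low throughout, at 0 in KO5, where 3 reads would be 2.25, and at 3.65 to 14.3 elsewhere. The 7 macrophage markers summed to 4718 to 5965 in WT and 4834 to 7960 in Gsdme_KO, highest in KO4. The 6 endothelial markers summed to 2906 to 3304 and 3041 to 5013, also highest in KO4. KO5, the lowest library for Cd36, was above every WT library in both sums, at 6607 and 4037. Their part in the Cd36 values was not tested.

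Mogat2 and Dgat1, the enzymes of the monoglyceride pathway of triglyceride resynthesis, kept nearly the same proportion in every library. Mogat2 had normalized counts of 5390 (WT3), 5453 (WT5), 4641 (WT7) and 3073 (WT8) in the WT libraries, and 2044 (KO4), 2925 (KO5), 5547 (KO7) and 4642 (KO8) in Gsdme_KO. Dgat1 had normalized counts of 5980 (WT3), 5561 (WT5), 4859 (WT7) and 3408 (WT8) for WT, then 2097 (KO4), 3026 (KO5), 6027 (KO7) and 4582 (KO8). In both genes KO4 and KO5 were below every other library, and KO7 was the highest. Both ranged nearly 3-fold over the libraries (2.71 and 2.87), yet the ratio of Dgat1 to Mogat2 in normalized counts moved only from 0.987 (KO8) to 1.11 (WT3). The log2 difference was -0.36 for Mogat2 (SE 0.320, 95% interval -1.09 to 0.37, limma adjusted p = 0.849) and -0.41 for Dgat1 (SE 0.321, 95% interval -1.14 to 0.32, limma adjusted p = 0.849). Without KO4 and KO5 these were 0.17 and 0.12.

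**Figure D3:**
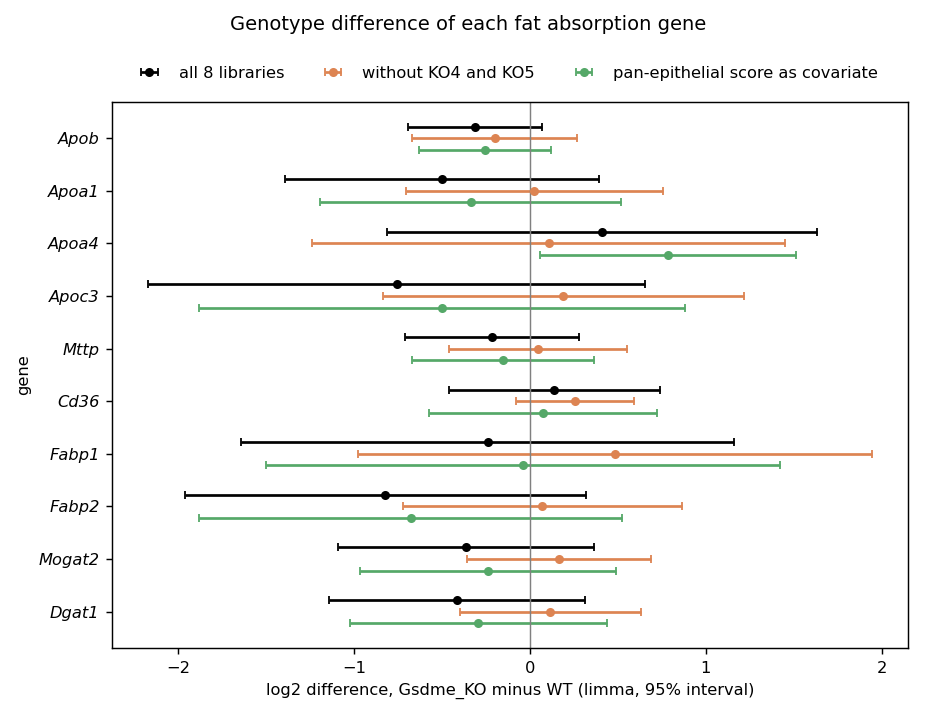
Log2 difference of Gsdme_KO minus WT for each member (points) with its 95% interval (bars) from limma, with all 8 libraries (black), without KO4 and KO5 (orange) and with the pan-epithelial score of each library as a covariate (green). The intervals of all members include 0 with all 8 libraries, and leaving out KO4 and KO5 moves every negative difference except that of Apob to above 0.

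Per kilobase of exon, the members formed a high pair and a long tail. In WT, Fabp2 had 105345 ± 32861 and Apoa1 93977 ± 23559 normalized counts per kilobase (SD, n = 4). Apob followed at 4124 ± 496, then Apoa4 at 3759 ± 2022, Mttp at 2602 ± 595, Mogat2 at 2528 ± 603, Dgat1 at 1620 ± 369, Fabp1 at 1285 ± 1092, Apoc3 at 388 ± 174 and Cd36 at 177 ± 11.9. Of the 9 neighbouring pairs in this order, 8 overlapped in range, and Apoa1 and Apob did not. In Gsdme_KO, Apoa1 (71186 ± 32877) came before Fabp2 (68890 ± 45518) and Apoa4 (4771 ± 2729) before Apob (3330 ± 534), both pairs with overlapping ranges.

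**Figure D4:**
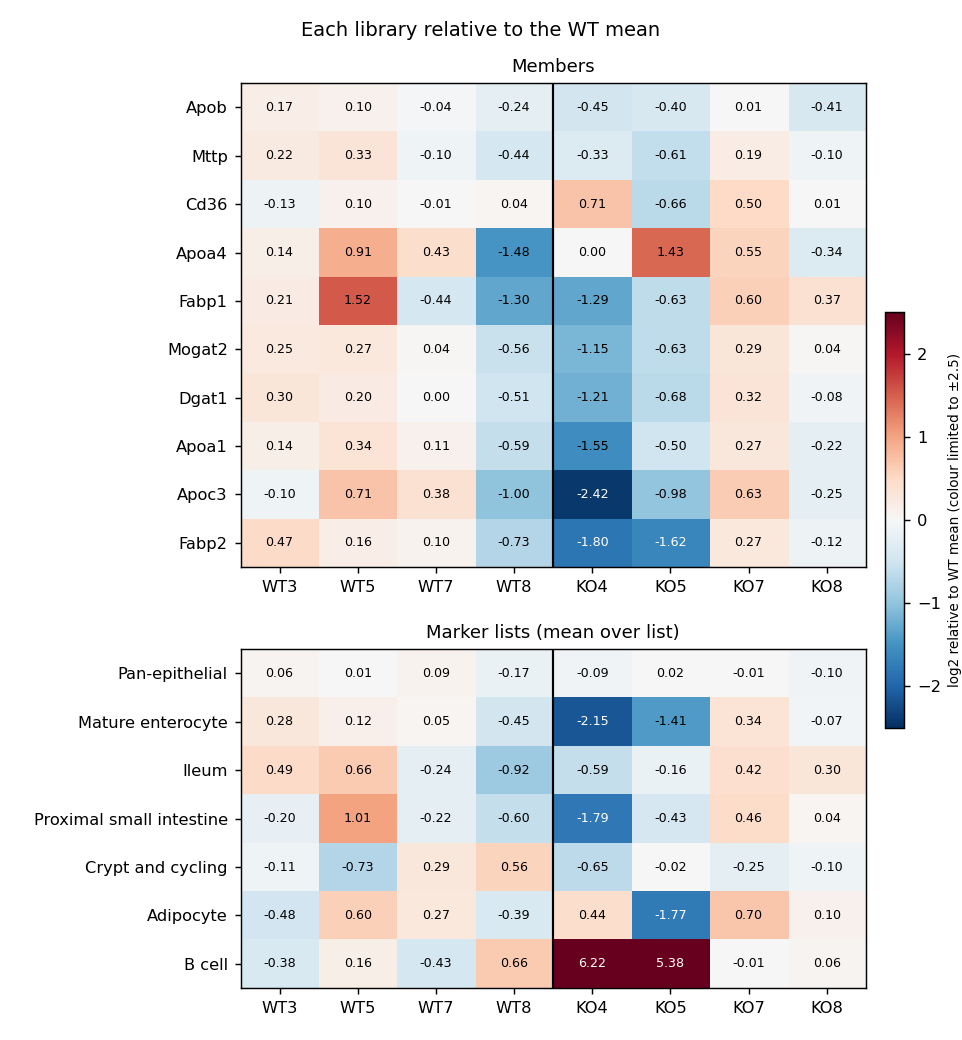
Log2 level of each member (upper grid) and mean log2 level of marker lists (lower grid) in each library (columns, WT left of the line), relative to the mean of the 4 WT libraries; red is higher, blue lower, and colour stops at 2.5 in either direction. KO4 and KO5 are low for most members and for mature enterocyte genes. The pan-epithelial mean lies between -0.17 and 0.09 in all libraries, a mean over genes that in KO4 and KO5 went in opposite directions (Epcam and Vil1 low, Krt18 and Elf3 high).

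The members differed in how far they shared the low enterocyte values of KO4 and KO5. The mature enterocyte score, a mean log2 level relative to WT, was -2.15 for KO4, -1.41 for KO5, -0.45 for WT8, 0.34 for KO7 and -0.07 for KO8. Fabp2, at -1.80 and -1.62, and Apoc3, at -2.42 and -0.98, came nearest to it. Apoa1 (-1.55 and -0.50), Dgat1 (-1.21 and -0.68) and Mogat2 (-1.15 and -0.63) were less far below WT, as was Fabp1 (-1.29 and -0.63). Apob (-0.45 and -0.40) and Mttp (-0.33 and -0.61) were only a little below WT. Relative to the enterocyte score, Apob stood 1.69 (KO4) and 1.01 (KO5) above WT and Mttp 1.81 and 0.80, while Apoa4 stood higher still at 2.14 and 2.84, and Cd36 at 2.85 and 0.75. That score is a mean over genes that fell unequally. Cubn had 167 (KO4) and 1002.5 (KO5), others at least 3633, whereas Mgam had 11922 and 10249.5, others at least 17344. In KO5, Slc5a1 (16720) and Alpi (5124) lay above WT8 (15059 and 4605). Fabp2, Dgat1 and Mogat2 were the members with KO4 and KO5 below all other libraries, 3 of 10, against 13.5% of all tested genes. WT8 was the lowest WT library in 9 of 10 members, against 31.3% of all tested genes, and it also had the lowest enterocyte score and the highest crypt and cycling score (0.56) among the WT libraries. The part of enterocyte content in these values was not tested.

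Markers of position along the intestine also differed between libraries. Fabp1 was highest in WT5, the library with the highest score of 4 proximal small intestine genes (1.01) and of 5 ileal genes (0.66). Within that proximal list, Lct, which encodes lactase, had 403 normalized counts in WT5, 55.5 to 195 in the other libraries besides KO4 and KO5, 3.75 in KO5 and 0 in KO4, where 3 reads would be 2.77. Gata4, a transcription factor of the upper intestine, had 108 in WT5 and 118 in KO5, the same libraries in which Apoa4 was highest, and 14.9 to 59.7 elsewhere. The rest of the proximal list differed. Cybrd1 had 107 in WT5 and 228 in KO5, its highest, and 90.2 to 132 elsewhere. Slc46a1 had 327 in WT5 and 225 in KO5, and was highest in WT7 (356). The score of the whole proximal list was -0.43 in KO5. The part of sampling position was not tested. The hepatocyte genes Alb (0 to 12.9), Ahsg (0 to 3.57), Fgb (0 to 4.43) and Serpina1a (0 to 7.45) were at or near 0. Ttr (26.6 to 40.2) and Cps1 (1285 to 6324) were not, and enterocytes also express Cps1. Of 6 pancreatic acinar genes, 4 were at 0 in all libraries and the 6 together reached at most 4.76 normalized counts.

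The genes with profiles most like each member were named by the root mean square difference of log2 values, centred per gene, over the 8 libraries. Dgat1 and Mogat2 differed by 0.057 from each other, the smallest distance among the 45 pairs of members, and each had Scp2, a peroxisomal sterol carrier protein, and Phyh, a peroxisomal enzyme of branched fatty acid oxidation, among its 3 nearest other genes (0.071 to 0.092). Fabp2 was nearest to Slc6a19, the neutral amino acid transporter of the brush border (0.118), and to the peptidase gene Pepd (0.134). For Apoc3 the nearest gene was Alpi, intestinal alkaline phosphatase (0.251), and for Fabp1 it was Fabp6 (0.311). Apoa1 was nearest to Aamdc (0.076), Apob to Them4 (0.062) and Mttp to Glt28d2 (0.083). For Cd36 it was Trf, which encodes transferrin (0.162). The nearest genes to Apoa4 were AA467197 (0.302), Duoxa2, the maturation factor of dual oxidase 2 (0.358), and Rbp2, the retinol binding protein of enterocytes (0.362). The widest distance between members was that of Apoa4 and Fabp2, at 1.17.

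The wider pathway gave no call either. Of 64 other fat absorption genes, 60 were tested and 0 were called in either direction by limma (background 0.00612%), edgeR (0.00612%) or DESeq2 (0.055%). At an unadjusted p under 0.05, limma, edgeR and DESeq2 each listed 2, Agpat3 and Angptl4 (background 4.38%, 5.96% and 6.93% of all tested genes). Log2 differences were positive in 23 and negative in 37, with a median of -0.04, and KO4 and KO5 were below all other libraries in 18 of the 60 (13.5% of all tested genes). Without KO4 and KO5, 39 of the 60 were positive and 21 negative, with a median of 0.050 and 0 called by limma, against a median of 0.0071 over all tested genes. The genotypes did not overlap in 3 of the 60 (background 2.5%), which are named here after their values were seen. Agpat3, a lysophosphatidic acid acyltransferase, ranged from 538 to 586 (WT) and from 620 to 689 (Gsdme_KO) (log2 difference 0.23, 95% interval 0.058 to 0.40, limma adjusted p = 0.849). Mgll, monoglyceride lipase, had 714 to 793 and 802 to 885 (0.15, 95% interval -0.025 to 0.32, limma adjusted p = 0.849). Angptl4, the lipoprotein lipase inhibitor, had 1120 to 2133 and 405 to 969 and a log2 difference of -1.32 (95% interval -2.03 to -0.61, limma adjusted p = 0.849). KO4 (405) and KO5 (406) were its lowest libraries, with 969 in KO7 and 679 in KO8. The smallest DESeq2 adjusted p among the 60 was 0.083. Without KO4 and KO5, limma listed 4 of the 60 at an unadjusted p under 0.05 (background 2.74%), namely Angptl4, Apobec1, Lpin1 and Lpl.

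For lipolysis and uptake (7 tested, 3 positive and 4 negative), the acyl-CoA synthetase gene Acsl5 had a mean normalized count of 21496 ± 6319 for WT and 19852 ± 4862 for Gsdme_KO (SD, n = 4). The fatty acid transport protein gene Slc27a4 had 13243 ± 2784 and 10640.5 ± 3815. For resynthesis (10 tested, 5 and 5), Agpat2 had 4927 ± 1117 and 5210 ± 427, and the phosphatidate phosphatase gene Lpin2 had 3413 ± 469 and 2908 ± 557. The genotypes overlapped in each of these 4 genes. For assembly and export (12 tested, 3 and 9), P4hb, whose product is the partner subunit of the Mttp protein, had 22278 ± 2787 and 20864 ± 2383, and the cargo receptor gene Surf4 had 6345 ± 878 and 6211 ± 443. Among other apolipoproteins (3 tested, 1 and 2), Apoe had 7915 ± 422 and 8530 ± 275, and Apoc1 had 53.7 ± 20.8 and 59.9 ± 40.3. Apoa5, the fourth gene of the apolipoprotein cluster of Apoa1, was at 0 to 1.13 and was not tested.

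For lipid droplets and lipases (10 tested, 6 and 4), the droplet coat gene Plin3 had a mean of 5681 ± 828 for WT and 5090 ± 628 for Gsdme_KO, and Pnpla2, adipose triglyceride lipase, had 2955 ± 495 and 2927 ± 254 (SD, n = 4). Among transcription factors (14 tested, 5 and 9, median -0.16), Hnf4a had 15230 ± 1700 and 13782 ± 2000, and Cdx2, a determinant of intestinal identity, had 3358 ± 608 and 3107 ± 1051. All 4 sterol and lipid export genes had negative differences, among them Abcg5 (2917 ± 432 and 1995 ± 963) and Abcg8 (2679.8 ± 403 and 1855 ± 972), the sterol exporter subunits, with KO4 and KO5 below all other libraries in both. The plot of members and other genes by role shows that the medians of the other roles lay between -0.40 and 0.03, and that of the members at -0.34. Without KO4 and KO5 the role medians lay between -0.05 (sterol and lipid export, 1 positive and 3 negative) and 0.14 (other apolipoproteins, 2 and 1), and transcription factors had 8 positive and 6 negative.

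**Figure D5:**
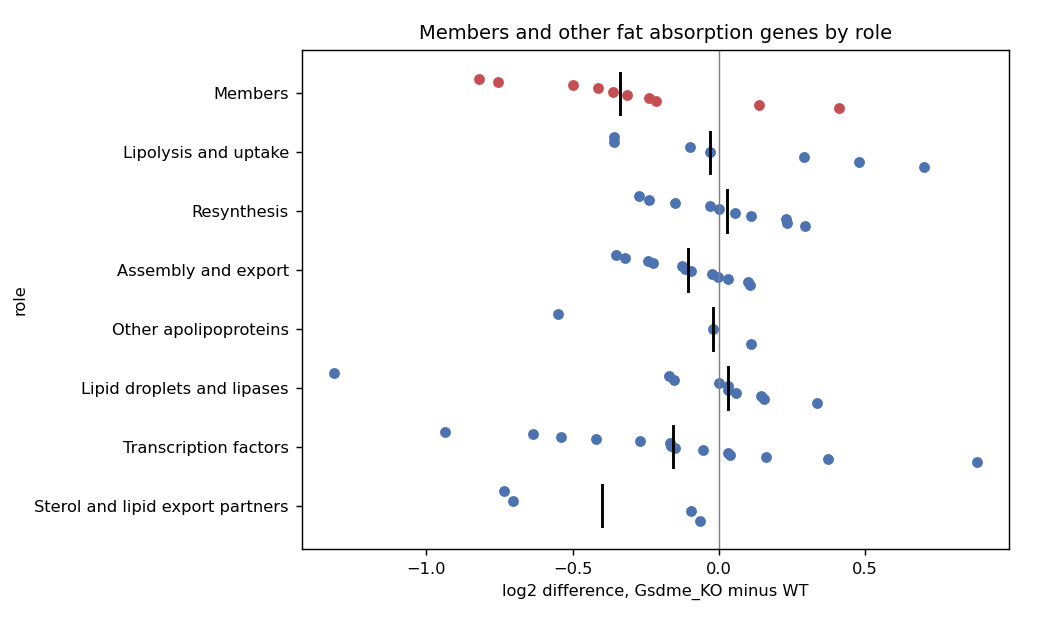
Log2 difference of Gsdme_KO minus WT (horizontal axis, limma) for the 10 members (red points, top row) and 60 other tested fat absorption genes by role (blue points), with a black bar at the median of each row. No gene shown passed the adjusted p threshold, and Angptl4, at -1.32, is farthest from 0.

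Taking the pan-epithelial score of each library, a mean over genes that went both ways in KO4 and KO5, as a covariate left 0 members called (background 0%, and 3.3% of tested genes at an unadjusted p under 0.05). The directions were those found without it, 8 negative and 2 positive. Fabp2 had a log2 difference of -0.68 (95% interval -1.88 to 0.53, limma adjusted p = 0.968) and Apob of -0.26 (95% interval -0.63 to 0.12, limma adjusted p = 0.968). Apoa4 had the smallest unadjusted p, 0.0381, with a log2 difference of 0.79 (95% interval 0.056 to 1.51, limma adjusted p = 0.968), and it was higher than the highest WT library in 1 of 4 Gsdme_KO libraries before adjustment for the score.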

How the data were processed

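Bulk ileum RNA from 8 irinotecan-treated mice was sequenced from strand-specific poly(A) libraries, per the labels' protocols. Named in the submitters' processing notes are the aligner HISAT2, the counter featureCounts (Subread), SAMtools, DESeq2 and the build GRCm38, without versions or a strand setting. The authors deposited normalized signal, that is, read counts per gene over a size factor for the library. Reads could be recovered, since 100% of values were whole multiples of 1 step per library within 0.01 reads, with divisors from 0.821 to 1.33 equal to recomputed median-of-ratios factors. Columns were assigned to genotypes only, because header and label numbers differ. No library duplicated another (chi-square per degree of freedom of at least 12.1). The labels do not say whether mice shared litters or batches.

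Genotypes were compared with limma-trend (limma 3.58.1, R 4.3.3) on log2(normalized count + 1) for genes with a mean of at least 10, Benjamini-Hochberg adjusted over 16352 genes and called under 0.05, without covariates. Fold changes on this scale understate the change of low genes. Alternatives were pseudocounts of 0.5 and 5, no filter, a minimum mean of 50, scaling by TMM, quantile normalization, array weights, edgeR 4.0.16 and DESeq2 1.42.0 on recovered reads, each library left out, KO4 and KO5 left out together, and a pan-epithelial covariate. Over all tested genes, 1 was called by edgeR run on recovered reads and 9 by DESeq2. Exon lengths and positions are from GENCODE M21, start-site windows from RefSeq. A library's list score is the mean log2 difference from WT over the list. From the pathway list, called genes or else the 2 of highest mean per role were named, and for each member the 3 most similar genes were found, of which the nearest are given. The symbol Ccl21a stood on several rows and was left out. The members, lists and alternatives were chosen with earlier results of these data known.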

Additional observations from a re-analysis of the deposited data

Results flagged for a closer look

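Of 20 groups of 4 libraries examined (10 members in 2 genotypes), 1 held a library far from the others, and chance flags about 1 in 20. KO7 had 57519 normalized counts of Apob, while the other Gsdme_KO libraries had 41748 to 43303. The gap to the nearest was 0.901 of the group's range, above Dixon's 95% critical value for 4 samples. KO7 was also above the WT mean on the log2 scale in all 10 members.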

How the results depend on the processing

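Over 19 alternatives for each of the 10 members, 190 values in all, 0 passed an adjusted p of 0.05 (smallest 0.428), and 177 kept their direction. Changes of the filter cannot alter a log2 difference, and the pseudocounts hardly moved it, so these alternatives add little to that count. Without KO4 and KO5 the log2 difference turned to 0.026 for Apoa1, 0.19 for Apoc3, 0.045 for Mttp, 0.48 for Fabp1, 0.072 for Fabp2, 0.12 for Dgat1 and 0.17 for Mogat2. With array weights it turned to -0.045 for Apoa4 and 0.18 for Fabp1. With 1 library left out at a time, Apoa4 ran from -0.083 (without WT8) to 0.71 (without WT5), Fabp1 from -0.67 (without WT8) to 0.27 (without WT5), with 0.11 without KO4, and Cd36 from -0.051 (without KO4) to 0.41 (without KO5). The cause was not tested. No alternative called any of the other fat absorption genes. Over all tested genes, 1 was called higher and 0 lower. DESeq2 called 8 higher and 1 lower, the fit without KO4 and KO5 called 0 and 1, the fit with the pan-epithelial covariate called 0 higher, and leaving out 1 library called 0 to 1 higher (1 only without WT8). The log2 difference of Gsdme ran from -3.71 to -2.88 over the 11 alternatives run for it, with the exact p at its smallest possible value each time, so that p says nothing about stability. No paired analysis was possible because the columns do not carry the labels' mouse numbers. With 4 mice per genotype the intervals are wide, for Apoc3 from -2.17 to 0.66, and Apoc3 also rests on the fewest reads, 72 to 495 per library.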

Other observations

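The ileum held transcripts of fat-digesting proteins best known from the pancreas, named here after their values were seen. Clps, which encodes colipase, had normalized counts of 1528 (WT3), 1836 (WT5), 2194 (WT7) and 489 (WT8) for WT, then 1037 (KO4), 3181 (KO5), 1569 (KO7) and 2209 (KO8) in Gsdme_KO. Pnliprp2, a pancreatic lipase-related protein, had 1213 to 4760 in WT and 2157 to 11404 in Gsdme_KO, highest in KO5 and lowest in WT8. The acinar genes Prss1, Cpa1, Cela2a and Amy2a5 were at 0 in all libraries, where 3 reads would be 2.25 to 3.65 normalized counts, and Pnlip, pancreatic lipase itself, reached 0.828. The libraries highest and lowest in Pnliprp2 and Clps, KO5 and WT8, were the same as for Apoa4. Neither gene was called (limma adjusted p = 0.865 for Clps and 0.849 for Pnliprp2), and no explanation was tested.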
